A study of Arabidopsis thaliana with 12 samples.

Results

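The comparison described here set the shoot apex of Arabidopsis thaliana grown with L-AOPP and IAA together against the mock-treated apex, and took in 6 of the 12 arrays of the study, 3 per group, chosen by their labels. All plants were wild type, ecotype Col-0, grown from seed on MS agar under continuous light. The plates of the first group held 50 µM L-AOPP and 10 nM IAA, and those of the mock group held 0.1% of the solvent DMSO; whether the plates with L-AOPP also held DMSO is not stated. In both groups the tissue holding the shoot apical meristem (SAM) was dissected from the plant with a micro knife. Apices grown on 50 µM L-AOPP alone (3 arrays) are used here beside this comparison, and whole mock plants (3 arrays) to check the tissue. Both also entered the estimate of the spread and the mean over all 12 arrays by which dim probe sets were left out. The sample labels give an age of 4 days and the series text one of 7 days, which is not settled here. The labels do not state that a group's 3 replicates came from separate cultures; the p-values therefore cover only the spread among these arrays, which may be technical.

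L-AOPP (2-aminooxy-3-phenylpropionic acid) is an analogue of phenylalanine known as an inhibitor of phenylalanine ammonia-lyase, the entry enzyme of phenolic metabolism, and named in the series text as blocking auxin biosynthesis. IAA, or indole-3-acetic acid, is the plant's chief auxin, a hormone that places new leaves and flowers at the shoot apex and drives cell expansion. Auxin acts by removing Aux/IAA repressor proteins, after which early genes of the Aux/IAA, GH3 and SAUR families are transcribed. The comparison of both compounds with mock therefore asks which transcripts differ from the untreated apex while auxin is supplied next to the inhibitor.

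Signals are linear intensities per probe set on a common scale, and a difference is given as log2, with signals below 20 set to 20. The 25S ribosomal RNA control read 164 on mock replicate 3 and between 5798 and 10331 on the other SAM arrays, so this mock array stood apart. For the GAPDH control, the log2 of 3′ over 5′ signal, a sign of RNA integrity and labelling, was 1.29 ± 0.0645 (SD, n = 3) with both compounds and 1.78 ± 0.361 in mock. It did not overlap between the groups, and its exact two-sided permutation p of 0.1 is the smallest that 3 arrays against 3 can give. The corresponding ratios differed by -0.259 for actin (exact permutation p = 0.4) and by -0.181 for ubiquitin (exact permutation p = 0.2). The dissected tissue carried apex transcripts: CLV3, which encodes the signal peptide of the meristem's stem cells, had a mock mean of 143 ± 42.4 (SD, n = 3) against 24.6 ± 22.7 in whole plants. UFO, an F-box gene of the apex and floral meristem, stood at 145 ± 19.1 against 32.3 ± 2.86, and the meristem regulator LAS at 142 ± 10.6 against 41.4 ± 4.59. These 3 belong to a list of 8 tested meristem and boundary genes. ATC (9.37 ± 10.7 against 493 ± 23.2) and YAB5 (275 ± 13.8 against 326 ± 24) of that list had lower means in the mock apex than in whole plants. The summed signal of 4 leaf mesophyll markers, RCA, PRK, SBPASE and LHCB4.1, lay between 35100 and 37400 on the mock apices, 32400 and 36500 with both compounds, and 84600 and 96500 in whole plants, so leaf transcripts were also measured in the apex samples.

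With both compounds present, 201 probe sets rose and 293 fell against mock out of 15923 tested (limma's moderated test, Benjamini-Hochberg adjusted p below 0.05). These were 1.26% and 1.84% of those tested, or 3.1% in all. The median difference over all tested probe sets was -0.00113, and the larger changes ran downwards: 77 of the falls and 28 of the rises were at least 2-fold. The 3 arrays of one group lay apart from the 3 of the other for 490 of the 494 called probe sets, and for 20.8% of all tested. L-AOPP alone changed 2.63% of the probe sets against mock, and L-AOPP with IAA differed from L-AOPP alone in 0.879%. These comparisons share arrays with the main one, so their values are given below only gene by gene. Exactly 1 gene is annotated for 237 of the called probe sets, and 182 of these genes are known here only by a locus code.

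The count of calls rested on the pooled estimate of the spread and on single arrays. When only the 6 arrays compared entered the fit, 1 probe set rose and 2 fell, and 2 rose and 3 fell when the GAPDH ratio entered as a covariate, although all 494 called differences kept their sign. Without mock replicate 3 the counts were 64 and 114, and 119 of the 494 were called whichever 1 of the 6 arrays was left out. In whole apex pieces, less RNA per cell and fewer cells of a type cannot be told apart.

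**Figure D1:**
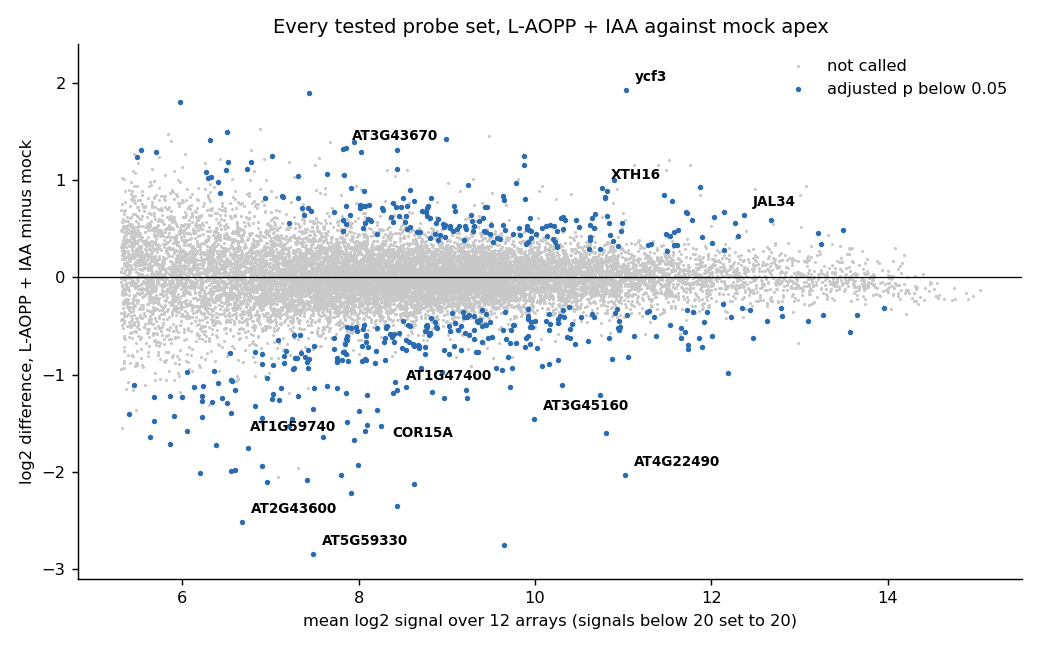
Each point is 1 of the 15923 tested probe sets, with its mean log2 signal over 12 arrays on the horizontal axis and the log2 difference of L-AOPP with IAA minus mock on the vertical axis. The 494 called probe sets are blue; the falls reach -2.84 (AT5G59330), and the rises reach 1.92 (the plastid gene ycf3).

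A first group of genes differed from mock both with L-AOPP alone and with both compounds. AT1G59740, a member of the NPF family of nitrate, peptide and hormone transporters (NPF4.3), gave signals of 197.4, 196.3 and 174.0 with both compounds, 175.5, 162.8 and 157.3 with L-AOPP alone and 589.5, 473.6 and 535.1 in mock. Both treated groups lay far below every mock array and close to each other. The fall was 2.81-fold with both compounds (log2 -1.49 ± 0.128 SE, limma adjusted p = 4.69e-05) and -1.68 ± 0.128 on the log2 scale with L-AOPP alone (adjusted p = 1.7e-05). The difference between the treatments was 0.195 ± 0.128 (adjusted p = 0.647). AT1G59740 was also called with only the 6 arrays compared, and so it was when the GAPDH ratio was a covariate (log2 -1.41, adjusted p = 0.0122). Of the 7 NPF and NRT members tested, 2 fell, none rose, and their median difference was -0.157, while 1.84% of all tested probe sets fell.

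The same held for AT3G43670, a copper amine oxidase gene whose family oxidises polyamines, but in the opposite direction. Its signals were 349.4, 245.1 and 305.1 with both compounds, 277.7, 266.6 and 241.1 with L-AOPP alone and 134.9, 117.9 and 105.2 in mock. All 6 treated arrays lay above all 3 mock arrays. The rise was 2.5-fold (log2 1.32 ± 0.154, limma adjusted p = 0.000608) against 1.14 ± 0.154 with L-AOPP alone (adjusted p = 0.00193), and both calls were made whichever 1 array was left out. AT3G43670 was the 1 riser among 7 probe sets of the amine oxidase and polyamine list, whose median was -0.116, while 1.26% of all tested probe sets rose.

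SBT4.12, a subtilisin-like serine protease, gave 41.7, 34.3 and 50.5 with both compounds, 38.4, 35.8 and 27.6 with L-AOPP alone and 126.5, 90.6 and 99.6 in mock. It fell 2.51-fold (log2 -1.33 ± 0.198, limma adjusted p = 0.0036), beside -1.64 ± 0.198 with L-AOPP alone. SBT4.12 was the 1 called member of 8 subtilases tested, while 3.1% of all tested probe sets were called. TBL36, of a family of enzymes that acetylate wall polysaccharides, gave 244.8, 192.8 and 253.2 against 483.1, 409.2 and 562.9 in mock. Its fall was 2.1-fold (-1.07 ± 0.16, adjusted p = 0.00358) and called without any 1 array. With L-AOPP alone TBL36 differed by -0.76 ± 0.16, a call lost without mock replicates 1 or 3 or L-AOPP replicates 2 or 3 (adjusted p 0.0811 to 0.0926).

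Genes of the iron deficiency response, which plants switch on to take up and move iron, were lower with both compounds. Of 7 members tested 3 fell, none rose, and the median was -0.745, while 1.84% of all tested probe sets fell. AT1G47400, a gene induced by iron deficiency, gave 232.9, 471.6 and 457.7 with both compounds against 1103, 725.5 and 691.9 in mock, with no overlap, and 158.7, 218.5 and 172.8 with L-AOPP alone. Its fall was 2.22-fold (log2 -1.15 ± 0.257, limma adjusted p = 0.0279), beside -2.18 ± 0.257 with L-AOPP alone (adjusted p = 0.00069). AT5G05250 gave 141.1, 312.0 and 330.6 against 852.9, 579.7 and 507.5 in mock, and fell 2.58-fold (-1.37 ± 0.299, adjusted p = 0.0249; L-AOPP alone -1.85 ± 0.299). AT3G56360 gave 640.6, 1194 and 989.7 against 1836, 1651 and 1473, and fell 1.81-fold (-0.853 ± 0.167, adjusted p = 0.0132; L-AOPP alone -1.25 ± 0.167). In each of these 3 genes the mean with both compounds lay between those of L-AOPP alone and mock, and replicate 1 was the lowest of the arrays with both compounds.

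The differences between both compounds and L-AOPP alone did not pass the test for these genes: 1.02 ± 0.257 for AT1G47400 (limma adjusted p = 0.0902), 0.485 ± 0.299 for AT5G05250 (0.619) and 0.396 ± 0.167 for AT3G56360 (0.378). The other members tested were PYE (-0.745, adjusted p = 0.106), a bHLH repressor of the iron response, its partner ILR3 (-0.197), BGLU42 (-0.0142) and AT3G07720 (0.341). Without mock replicate 1 the calls of AT1G47400, AT5G05250 and AT3G56360 were lost (adjusted p 0.0971, 0.0905 and 0.0539). AT1G47400 also lost its call without mock replicate 3 (0.0526) or replicate 1 of both compounds (0.0652), and AT5G05250 without the latter (0.0533).

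**Figure D2:**
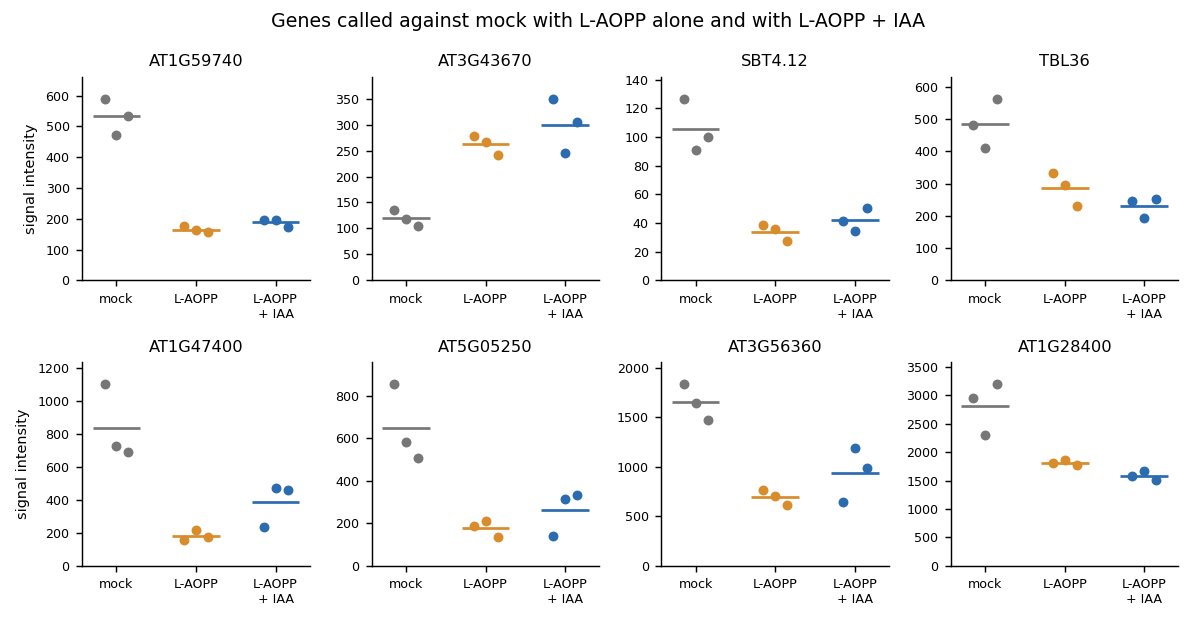
Signal intensity per array (points) and group mean (line) in mock, L-AOPP and L-AOPP with IAA, 3 arrays each, for 8 genes called against mock in both treatments. The arrays of both compounds lie apart from the mock arrays in all 8 panels, above them only for AT3G43670.

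Further genes of this first group are known here only by their codes. AT3G45160, AT1G06830 and AT1G28400 were picked after their values were seen, while AT1G43910 and AT3G14760 were among the 15 rises named by size. AT3G45160 gave 639.1, 492.9 and 547.4 with both compounds, 918.9, 911.1 and 924.9 with L-AOPP alone and 1804, 1403 and 1400 in mock. The 3 groups lay apart from each other in this order, and the fall was 2.74-fold (log2 -1.45 ± 0.111, limma adjusted p = 1.85e-05) against -0.731 ± 0.111 with L-AOPP alone. The step from L-AOPP to both compounds was itself called (-0.722 ± 0.111, adjusted p = 0.00735). AT3G45160 and AT1G59740 were the 2 named genes still called with only the 6 arrays compared. AT1G06830 fell 1.94-fold, from 1322, 1015 and 1184 to 593.0, 597.6 and 616.6 (-0.954 ± 0.115; L-AOPP alone -0.874 ± 0.115). AT1G28400 fell 1.76-fold, from 2960, 2306 and 3194 to 1588, 1666 and 1502 (-0.818 ± 0.102; L-AOPP alone -0.621 ± 0.102). Upwards, AT1G43910 gave 133.4, 239.4 and 231.8 against a mock mean of 82.7 ± 11.4 (SD, n = 3; 1.25 ± 0.22, adjusted p = 0.00792), and AT3G14760 gave 85.8, 86.4 and 105.9 against 47.1, 43.7 and 37.7 (1.11 ± 0.207, adjusted p = 0.0109). With L-AOPP alone these differed by 0.901 ± 0.22 and 1.02 ± 0.207, and the call of AT1G43910 with L-AOPP alone was lost whichever 1 array was left out (adjusted p 0.0836 to 0.139), that of AT3G14760 without mock replicates 1 or 3 or L-AOPP replicates 1 or 3 (0.0526 to 0.083).

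2 genes tied to auxin belonged to this group. HAT2, an auxin-inducible homeodomain transcription factor, gave 486.7, 376.1 and 423.2 with both compounds against 676.5, 525.7 and 714.2 in mock. It was lower on all 3 arrays although IAA was on the plates (log2 -0.571 ± 0.138, limma adjusted p = 0.039; L-AOPP alone -0.751 ± 0.138). IAGLU, an enzyme that joins IAA to glucose, gave 218.1, 308.0 and 261.4 against 184.1, 174.3 and 158.1 (0.597 ± 0.149, adjusted p = 0.0437; L-AOPP alone 0.729 ± 0.149). Both calls were weak in that HAT2 lost its own without mock replicates 1 or 3 or replicates 2 or 3 of both compounds (adjusted p 0.0873 to 0.147), and IAGLU without any 1 array but replicate 1 of both compounds (0.0642 to 0.16). With L-AOPP alone each was lost without mock replicates 1 or 3 or either of 2 L-AOPP arrays, replicates 1 and 3 for HAT2 (0.0515 to 0.0638) and 1 and 2 for IAGLU (0.0569 to 0.0924). With the GAPDH covariate HAT2 stood at -0.349 (adjusted p = 0.788).

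Smaller changes in the same direction under both treatments were found in 4 single genes of unlike function, UGT73B1, MSRB9, SAPX and GAMMA-VPE. UGT73B1, a glucosyltransferase that acts on phenolic compounds, gave 368.1, 278.8 and 300.7 against 201.8, 224.0 and 140.4 in mock (log2 0.761 ± 0.174, limma adjusted p = 0.0304; L-AOPP alone 0.824 ± 0.174). It was the 1 called member among 33 UGT genes tested, whose median was 0.106, a count near the 3.1% called of all tested probe sets. MSRB9, which repairs oxidised methionine, gave 1086, 818.8 and 1207 against 645.1, 747.3 and 735.3 (0.533 ± 0.116, adjusted p = 0.0245; L-AOPP alone 0.57 ± 0.116). SAPX, an ascorbate peroxidase of the chloroplast stroma, gave 2896, 2980 and 3100 against 2002, 2604 and 2021 (0.448 ± 0.0902, adjusted p = 0.015), beside 0.705 ± 0.0902 with L-AOPP alone. GAMMA-VPE, a processing protease of the vacuole, fell from 1305, 1243 and 1468 to 990.3, 1067 and 845.9 (-0.472 ± 0.102, adjusted p = 0.0245; L-AOPP alone -0.44 ± 0.102). Each of these 4 lost its call without mock replicate 1, mock replicate 3 or replicate 3 of both compounds (adjusted p 0.0523 to 0.11), UGT73B1 and MSRB9 also without replicate 1 of both compounds (0.0914 and 0.0652). With L-AOPP alone the call of SAPX was made without any 1 array, while 4 single arrays could each end that of UGT73B1 (mock replicates 1 and 3, L-AOPP replicates 2 and 3; 0.0619 to 0.116) or of MSRB9 (mock replicate 1 and all L-AOPP replicates; 0.0625 to 0.0978), and 5 that of GAMMA-VPE (all but mock replicate 2; 0.0903 to 0.124). With the GAPDH covariate UGT73B1 stood at 0.405 (adjusted p = 0.792) and SAPX at 0.243 (0.704).

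A second group of genes differed from mock with both compounds, while with L-AOPP alone they were not called. This alone does not set them apart from L-AOPP alone. The step from L-AOPP to both compounds was called for some of them and not for others. Among those named below, it was not called for EXPA4 (-0.367, limma adjusted p = 0.181), SWEET11 (0.974, 0.162) or TUB1 (0.385, 0.0907). Nor was it called for BCAT4 (-0.766, limma adjusted p = 0.189) or GTR2 (-0.565, 0.213). XTH16, an enzyme that cuts and rejoins xyloglucan in growing walls, gave 2617, 2873 and 3164 with both compounds, 1693, 1552 and 1691 with L-AOPP alone and 1501, 1698 and 1390 in mock. The arrays with IAA stood above all others, and the other 2 groups overlapped. The rise was 1.89-fold against mock (log2 0.916 ± 0.0935, limma adjusted p = 0.000222), the difference from L-AOPP alone was 0.807 ± 0.0935 (adjusted p = 0.000992), and both were called without any 1 array. XTH16 was the 1 riser among 6 XTH genes tested, with a median of 0.25, while 1.26% of all tested probe sets rose. Among wall-loosening expansins 1 of 12 was called, while 3.1% of all tested probe sets were. EXPA4 fell from 1190, 1075 and 1589 to 794.3, 778.4 and 789.9 (-0.686 ± 0.114, limma adjusted p = 0.00611), beside -0.319 ± 0.114 with L-AOPP alone. With the GAPDH covariate EXPA4 stood at -0.361 (adjusted p = 0.515).

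The ER body is a compartment of Brassicaceae cells that stores beta-glucosidase for defence. Of 4 genes linked to it, picked after their values were seen and not a list that was tested, 3 rose and PYK10 was not called. Over all tested probe sets 1.26% rose, but the 4 were chosen by their values, so their count cannot be set against that share. JAL34, a jacalin-related lectin, gave 5907, 5565 and 5722 with both compounds, 4159, 4297 and 4312 with L-AOPP alone and 3698, 3822 and 3478 in mock. The 3 groups did not overlap, and the rise was 1.56-fold (log2 0.645 ± 0.0667, limma adjusted p = 0.000222). NAI2, which is needed to form ER bodies, gave 3924, 3985 and 3810 against 2162, 2545 and 2686 in mock (0.67 ± 0.089, adjusted p = 0.00128). NAI1, the transcription factor that controls them, gave 276.6, 324.3 and 282.4 against 176.8, 189.6 and 170.2 (0.717 ± 0.135, adjusted p = 0.0113), a call lost without replicate 2 of both compounds (0.0511). With L-AOPP alone the differences were 0.216 ± 0.0667 for JAL34, 0.303 ± 0.089 for NAI2 and 0.513 ± 0.135 for NAI1, none of them called. The step from L-AOPP to both compounds was called for JAL34 (0.429 ± 0.0667, adjusted p = 0.00741; 0.051 without L-AOPP replicate 1) and not for NAI2 (0.367 ± 0.089, 0.0739) or NAI1 (0.204 ± 0.135, 0.652). PYK10, the main ER body beta-glucosidase and here also a root marker, had a mean of 16400 ± 504 (SD, n = 3) against 14600 ± 115 and was not called (0.168 ± 0.0711, adjusted p = 0.227). The other root marker tested, EXPA18, stood at 51.8 ± 1.27 against 37.9 ± 2.75 (adjusted p = 0.458), and the part of root tissue in these values was not tested.

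**Figure D3:**
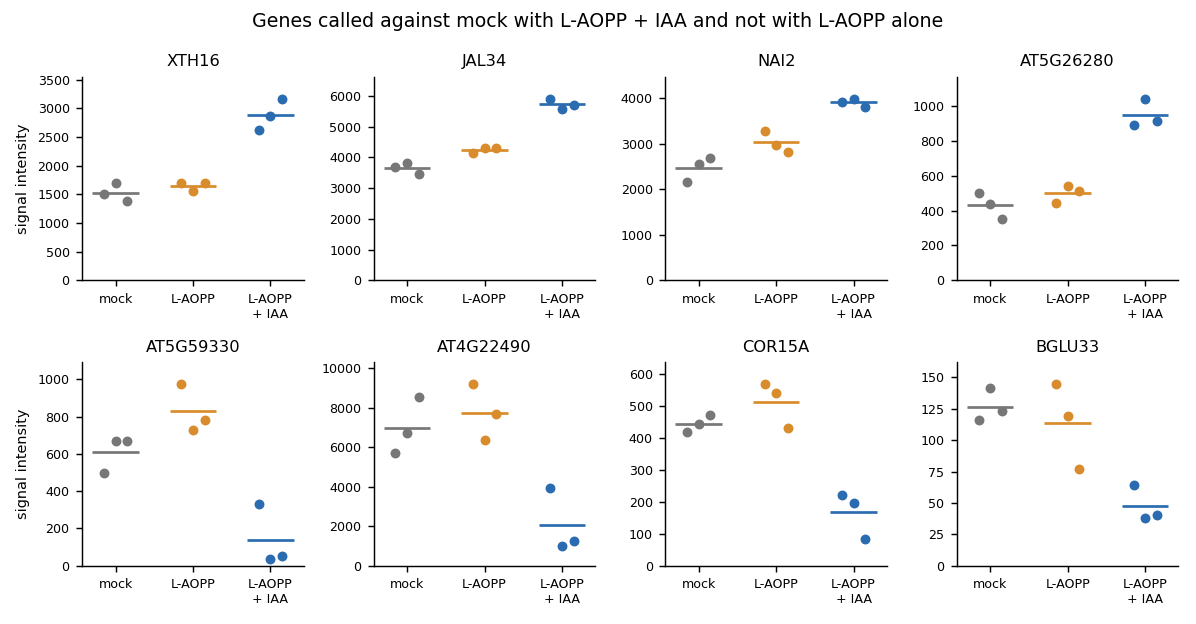
Signal intensity per array (points) and group mean (line) in mock, L-AOPP and L-AOPP with IAA, 3 arrays each, for 8 genes called against mock with both compounds and not with L-AOPP alone. The upper 4 are higher and the lower 4 lower with both compounds than on every mock array.

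Of 3 tested members of the list for abscisic acid and drought, 2 fell, both also known from cold responses, and the list median was -0.53. Among all tested probe sets 1.84% fell. COR15A, a chloroplast protein that protects membranes during freezing, gave 221.2, 195.8 and 83.8 with both compounds, 566.9, 538.3 and 431.5 with L-AOPP alone and 416.6, 441.8 and 472.1 in mock. The arrays with both compounds lay below all others. COR15A fell 2.88-fold (log2 -1.53 ± 0.262, limma adjusted p = 0.00716), with 0.2 ± 0.262 for L-AOPP alone and -1.73 ± 0.262 for the step between the treatments (adjusted p = 0.00711). The dehydrin COR47 fell from 1090, 1078 and 958.4 to 888.5, 574.1 and 733.1 (-0.53 ± 0.126, adjusted p = 0.0355), a call lost without any 1 array but replicate 1 of both compounds (0.0603 to 0.115). Unlike COR15A, COR47 was also lower with L-AOPP alone (-0.363 ± 0.126, limma adjusted p = 0.145), though not called. Its step to both compounds was small and not called (-0.167 ± 0.126, limma adjusted p = 0.705). COR15B stood at -0.09.

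Among the largest falls were those of genes known here by locus codes only. AT5G59330 gave 329.3, 37.1 and 49.8 with both compounds, 974.3, 729.9 and 781.2 with L-AOPP alone and 498.7, 668.0 and 671.2 in mock. Replicate 1 of both compounds stood between the other 2 arrays of its group and mock. The fall was 7.16-fold (log2 -2.84 ± 0.549, limma adjusted p = 0.0124), and it was not called without mock replicate 3 (0.0553) or replicate 3 of both compounds (0.0502). AT4G22490, one of the brightest of these genes, gave 3916, 983.1 and 1241 against 5719, 6716 and 8561 in mock (-2.03 ± 0.35, adjusted p = 0.00722). AT1G28710 gave 546.8, 152.0 and 133.3 against 774.1, 1065 and 1105 (-2.12 ± 0.388, adjusted p = 0.0104). In both of them replicate 1 again stood between the rest of its group and mock.

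AT2G43600 gave 47.6, 12 and 8.2 against 134.5, 161.6 and 164.9, with 2 arrays under the floor, so its log2 difference of -2.52 ± 0.282 (limma adjusted p = 0.000403) understates the fall. AT4G01390 gave 27.7, 20.6 and 35.2 against 120.6, 84.5 and 124.1 (-1.99 ± 0.245, adjusted p = 0.000914). The step from L-AOPP to both compounds was called for AT5G59330, AT4G22490, AT1G28710, AT2G43600 and AT4G01390 and ran from -3.28 to -2.14. It was not called for AT5G48430 (-1.25, adjusted p = 0.209), whose fall against mock was -2.03 ± 0.406. It was lost for AT5G59330, AT4G22490 and AT1G28710 without L-AOPP replicate 1 or replicate 3 of both compounds (adjusted p 0.0549 to 0.0687). Replicate 1 was the highest of the 3 arrays with both compounds for 12 of the 15 falls named by size, for 151 of all 293 falls and for 63 of the 201 rises. The same count was not made over all tested probe sets, so whether these shares are unusual was not tested.

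The other falls named by size were AT5G64110 (-1.98), AT5G62360 (-1.93), AT5G38320 (-1.73), AT2G21045 (-1.65) and AT2G43610 (-1.46). LSH9, of a family of light-dependent growth regulators, gave 26.7, 21.1 and 19.4 against 75.5, 71.8 and 73.0 (-1.71 ± 0.334, limma adjusted p = 0.0132). With L-AOPP alone LSH9 stood at -1.0 ± 0.334 and AT5G62360 at -1.06 ± 0.344, neither called. Their steps to both compounds were not called either (-0.708, limma adjusted p = 0.455, and -0.866, 0.335). AT5G64110, AT5G38320, AT2G21045 and AT2G43610 differed from mock by 0.0206 to 0.338 with L-AOPP alone. AT1G01640 gave 4.7, 20 and 7.6 against 63.6, 59.5 and 45.4, so that every array with both compounds was at or under the floor and the gene was at least 2.78-fold lower. Without mock replicate 3 the calls of AT5G64110, AT5G48430, AT2G21045, AT2G43610 and LSH9 were lost (adjusted p 0.0519 to 0.0731), that of AT5G64110 also without replicates 2 or 3 of both compounds (0.0546 and 0.0525). BGLU33, a beta-glucosidase family member, gave 64.2, 38.4 and 40.1 against 115.9, 141.4 and 122.9, and fell 2.73-fold (-1.45 ± 0.237, adjusted p = 0.00588; L-AOPP alone -0.201 ± 0.237). It was the 1 called gene of 11 beta-glucosidases tested, whose median was 0.143, while 3.1% of all tested probe sets were called.

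Rises of the second group were smaller. AT5G26280 gave 888.9, 1040 and 911.4 with both compounds, 445.5, 539.2 and 511.0 with L-AOPP alone and 500.2, 437.8 and 351.0 in mock (log2 1.15 ± 0.12, limma adjusted p = 0.000222). Its arrays with both compounds lay far above the others, and the step from L-AOPP was called (0.927 ± 0.12, adjusted p = 0.00229). SWEET11, a sucrose exporter that loads the phloem, gave 159.4, 301.4 and 400.3 against 147.5, 129.0 and 65.7 (1.31 ± 0.292, adjusted p = 0.0271). It was the 1 called gene of 7 in the starch and sucrose list, whose median was 0.288, while 3.1% of all tested probe sets were called. The call of SWEET11 was lost without mock replicate 3 (0.0992) or replicates 2 or 3 of both compounds (0.0851 and 0.0905). AT5G16980 rose from 36.2, 30.9 and 23.8 to 54.5, 112.1 and 81.7 (1.41 ± 0.26, adjusted p = 0.0105) and was called without any 1 array. With L-AOPP alone AT5G16980 differed by 0.797 ± 0.26, and its step to both compounds was not called (0.613 ± 0.26, limma adjusted p = 0.387). AT3G16670 stood at or under the floor on all mock arrays and at 34.9, 41.7 and 47.1 with both compounds, so it was at least 2.05-fold higher (adjusted p = 0.0144, and 0.0519 without replicate 3 of both compounds). It was dim in every apex group and read 2220 ± 49 (SD, n = 3) in whole plants, whose arrays also entered the filter on dim probe sets. The size of its rise depended on the floor, as given in the last section. TUB1, a beta-tubulin, rose from 1147, 1221 and 1499 to 1831, 1796 and 1783 (0.494 ± 0.0971, adjusted p = 0.0137; 0.0554 without mock replicate 1).

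The other rises named by size were AT5G41940 (1.81), AT3G49400 (1.29), AT5G42440 (1.24), AT1G48660 (1.19) and AT4G11210 (1.1), with signals of at most 362.2 on any array with both compounds. Each lost its call when 1 of 2 or more arrays was left out: AT3G49400 without any 1 of the 6 (limma adjusted p 0.0579 to 0.139), AT4G11210 without any but replicate 1 of both compounds (0.0531 to 0.182). AT5G41940 (0.0502 to 0.0645) and AT5G42440 (0.0676 to 0.0948) lost theirs without mock replicate 3 or replicates 2 or 3 of both compounds, AT5G42440 also without mock replicate 2. AT1G48660 lost its call without mock replicate 1 or replicate 2 of both compounds (0.0539 to 0.0684). With L-AOPP alone AT5G41940 differed by 0.833, AT3G49400 by 1.06, AT5G42440 by 0.986 and AT1G48660 by 0.8, none of them called, and AT4G11210 by -0.137. For none of these genes was the step from L-AOPP to both compounds called (limma adjusted p 0.0542 to 0.867).

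Glucosinolates are sulfur-rich defence compounds of this plant family. BCAT4, which starts the chain elongation of methionine in their synthesis, gave 5826, 4548 and 3286 with both compounds against 7952, 7785 and 10860 in mock (log2 -0.983 ± 0.241, limma adjusted p = 0.0406). It was the 1 called gene of 4 in the list, whose median was -0.132, while 3.1% of all tested probe sets were called. GTR2, a transporter of glucosinolates from the NPF family, gave 355.3, 232.9 and 287.1 against 474.1, 372.6 and 691.3 (-0.787 ± 0.185, adjusted p = 0.0342), while GTR1 stood at 0.0179. With the GAPDH covariate GTR2 stood at -0.304 (adjusted p = 0.873). Both genes were nearer to mock with L-AOPP alone (-0.217 ± 0.241 and -0.222 ± 0.185). Both calls were lost without mock replicates 1 or 3 or replicates 2 or 3 of both compounds (adjusted p 0.07 to 0.162).

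In 6 more lists a single gene or a pair was called, and every such call depended on single arrays. PDF1.2, a defensin marker of jasmonate and ethylene defence, fell from 181.4, 267.5 and 262.8 to 152.5, 95.2 and 102.3 (log2 -1.03 ± 0.22, limma adjusted p = 0.0215), and SIM, an inhibitor of cyclin-dependent kinases, fell from 449.4, 424.2 and 506.3 to 333.1, 261.3 and 322.5 (-0.594 ± 0.134, adjusted p = 0.0288). AER, which reduces reactive carbonyls, rose from 195.3, 210.2 and 176.3 to 263.7, 396.3 and 313.4 (0.726 ± 0.146, adjusted p = 0.0153). GSTU26, a glutathione transferase, rose as well (0.576 ± 0.125, adjusted p = 0.0245), and the pyruvate decarboxylase PDC2 (-0.502 ± 0.115, 0.0309) and the glutaredoxin GRXC2 (-0.332 ± 0.0773, 0.0327) fell. All 6 lost the call without mock replicate 3 (adjusted p 0.0537 to 0.11) and without replicate 2 of both compounds (0.0667 to 0.116). GRXC2, SIM and GSTU26 lost it also without mock replicate 1 (0.0628 to 0.097), PDF1.2 and PDC2 without mock replicate 2 (0.0554 and 0.0678), PDF1.2, PDC2 and GRXC2 without replicate 3 of both compounds (0.0704 to 0.0886), and GRXC2 without replicate 1 (0.0622). With the GAPDH covariate GRXC2 stood at -0.22 (0.733). The counts called, beside 3.1% of all probe sets tested, were 1 of 6 for jasmonate and wound genes (list median -0.0387) and 1 of 6 for the cell cycle (0.0791). They were 1 of 7 for oxylipin and xenobiotic response (0.616) and 1 of 11 for glutathione transferases (-0.045). For low oxygen the count was 1 of 7 (0.499), and for thioredoxins and their relatives 2 of 12 (-0.199). In the low oxygen list 6 of the 7 lay above 0, so PDC2 ran against the rest of it.

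**Figure D4:**
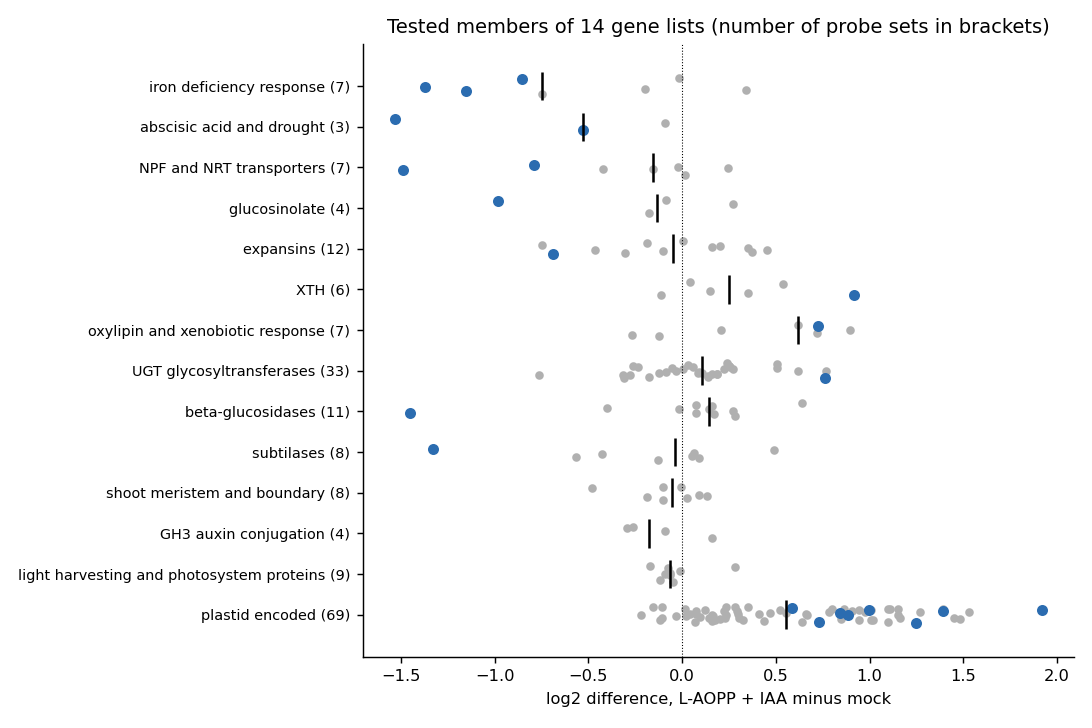
Each point is 1 tested probe set of 14 gene lists, placed by its log2 difference of L-AOPP with IAA minus mock; blue points are called and black bars are list medians. The iron deficiency list has its median at -0.745 and the plastid list at 0.554, while the meristem and GH3 lists hold no called member.

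Transcripts of the plastid genome, which encodes parts of the photosystems and of the plastid's own transcription and translation machinery, read higher with both compounds. Of 69 probe sets tested 8 rose and none fell, 63 lay above 0, and the median was 0.554. Among all tested probe sets 1.26% rose, with a median of -0.00113. The 8 were ycf3 (1.92), a photosystem assembly factor, petG (1.39) of the cytochrome b6f complex, ndhA (0.586) of the NDH complex, the RNA polymerase subunits rpoC2 (0.999) and rpoC1 (0.843), and the ribosomal proteins rps15 (1.25), rps18 (0.883) and rps16 (0.728). For ycf3 the signals were 1651, 3519 and 3345 against 1059, 1061 and 317.9 in mock (limma adjusted p = 0.0205). Mock replicate 3 was by far the lowest array, and the call of ycf3 was lost without it (0.0645) or without replicates 2 or 3 of both compounds (0.075 and 0.0704). That of petG was lost without any 1 array but mock replicate 2 (0.0539 to 0.146), and that of rps15 without any but mock replicate 1 (0.0535 to 0.169).

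Relative to the mock mean, the median of the 69 plastid probe sets was 0.72, 0.542 and 0.427 on the arrays with both compounds and 0.21, 0.0993 and -0.424 on the mock arrays. On the arrays with L-AOPP alone it was 0.0728, -0.102 and 0.731. So mock replicate 3 was low, and 1 array with L-AOPP alone was as high as those with both compounds. Without mock replicate 3 none of the 69 was called by limma and the median was 0.342, and none was called, with a median of 0.426, when the GAPDH ratio was a covariate. Without replicates 1 or 2 of both compounds 2 were called in each case, with medians of 0.459 and 0.679. Nuclear genes of the light-harvesting and photosystem proteins gave no call among 9 tested, with a median of -0.0646. Of 9 mitochondrial probe sets 1 rose, cox1 of the respiratory chain (521.1, 439.2 and 496.5 against 328.2, 250.8 and 215.3; 0.894 ± 0.201, adjusted p = 0.0288), with a list median of 0.522. That median was 0.232 with a floor at 40, 0.258 with array weights, 0.31 with the GAPDH covariate and 0.338 with a pseudocount of 20. The call of cox1 was lost without any 1 array but mock replicate 1 (0.0502 to 0.118). These 9 are the probe sets that the gene table places on the mitochondrial genome. The annotated gene ccb452 had no match in that table, so it was in no list. It also rose (0.82, limma adjusted p = 0.0323, and up to 0.0996 with 1 array left out).

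**Figure D5:**
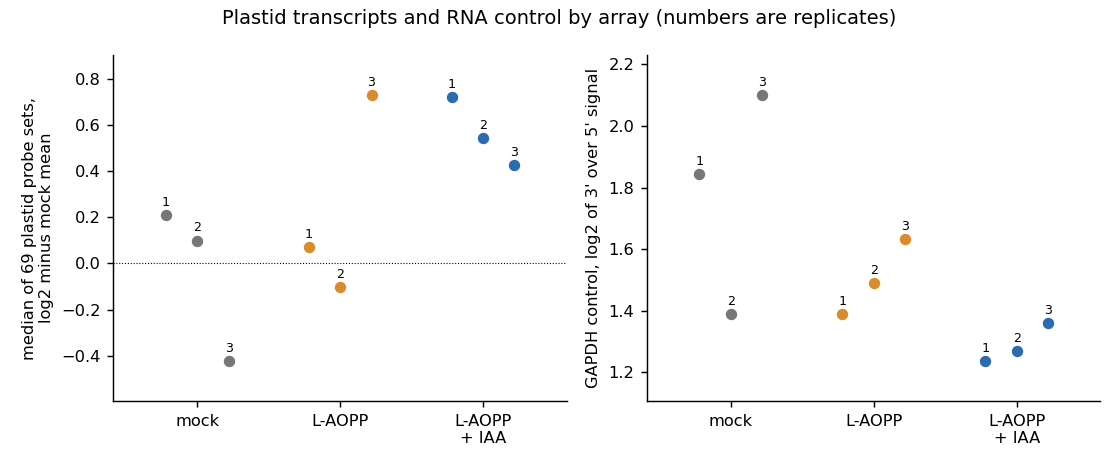
Left, the median log2 signal of 69 plastid probe sets relative to the mock mean, and right, the log2 ratio of 3′ over 5′ GAPDH control signal, for each SAM array (the number is the replicate). Mock replicate 3 has the lowest plastid median, -0.424, and the highest GAPDH ratio, 2.102.

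Of the gene families that answer auxin most directly, no tested member was called against mock with both compounds present. Few members could be tested: 3 of 32 Aux/IAA, 4 of 11 GH3 and 1 of 78 SAUR genes in the gene table. Most of these families were therefore not tested here, and the auxin-inducible HAT2, given above, was called. None of 3 Aux/IAA repressors (IAA18 0.0193, IAA29 -0.0299, IAA30 -0.12) and none of 4 GH3 enzymes, which conjugate IAA to amino acids, was called by limma; the lowest adjusted p among GH3 genes was 0.435, for GH3.3 (-0.292 ± 0.185). The 1 SAUR gene tested, AT3G53250, stood at 0.612 ± 0.173 (adjusted p = 0.0686). The auxin-synthesis genes YUC2 (0.714) and YUC4 (0.505 ± 0.205, adjusted p = 0.206) and the auxin glucosyltransferase UGT74D1 (0.505 ± 0.163, 0.107) were not called.

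None of 8 meristem and boundary genes was called by limma, and their median was -0.0546. Of these, ATC had means under the floor in both groups (15.5 ± 11.1 against 9.37 ± 10.7, SD, n = 3), so the test says little about it. UFO (145 ± 27.2 against 145 ± 19.1, SD, n = 3) and LAS (148 ± 34.7 against 142 ± 10.6) had nearly equal means in the groups. CLV3 stood at 107 ± 54.3 against 143 ± 42.4 (log2 -0.482 ± 0.364, adjusted p = 0.524), so a lower level was within the spread. Of the genes that make phenolic compounds, 2 of the phenylpropanoid and lignin list and 5 of the flavonoid and anthocyanin list were tested and none was called by limma. HCT of the lignin pathway stood at 0.222 ± 0.0749 (adjusted p = 0.124) and AT5MAT of anthocyanin decoration at 0.227 ± 0.276 (0.723).

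Over all 79 gene lists, 355 of 465 genes named on the array were tested, 64 lists had a tested member, and 22 had a called one. Of the 358 probe sets of these genes 16 rose and 16 fell, while 3.1% of all tested probe sets were called. The lists were chosen with earlier results of these data known, so their share is not a test. In the 42 tested lists with no call the member with the smallest p did not pass the threshold. Examples are the stress gene CML38 (1.04 ± 0.46, limma adjusted p = 0.246), WRKY47 (-1.19 ± 0.344, 0.0748), bHLH104 (-0.343 ± 0.0938, 0.0615), ARR15 of cytokinin signalling (-0.318 ± 0.138, 0.237), the autophagy gene ATG8E (0.293 ± 0.139, 0.276) and ALDH7B4 (0.303 ± 0.0998, 0.116). No marker was called in the lists for root (2 tested), mesophyll (4), vascular (2), epidermal (4) and seed cells (1). The summed signal of the vascular markers ran from 420 to 479 with both compounds and from 380 to 613 in mock, that of the epidermal markers from 876 to 1030 against 840 to 1130, and that of the root markers from 15900 to 16900 against 14500 to 14700.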

How the data were processed

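RNA of 12 samples was hybridised to 1-colour Affymetrix ATH1 arrays, 3 per group. The deposited files hold a linear signal intensity for each probe set; per the submitters' processing notes the authors used MAS5, version not given. The deposited intensities share 1 scale (mean of 500.05 to 500.06 per array after trimming 2% at each end) and carry no detection calls, so absence cannot be stated, and the number of arrays limits the precision. From them, log2 was taken after setting values below 20 to 20. The 64 control probe sets and the 30% of the other 22746 with the lowest mean were left out, which left 15923. In R 4.3.3, limma 3.58.1 (lmFit, then eBayes with trend) was fitted to 4 groups over all 12 arrays (8 residual degrees of freedom), two-sided, with Benjamini-Hochberg adjustment over all tested and calls at 0.05. The fit was also run on simulated data with independent noise of equal spread on every array. That run cannot speak to outlying arrays such as mock replicate 3. SE are the model's.

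Gene names came from the platform annotation, which can be old: 13513 probe sets have 1 gene, 503 several and 8730 none listed; 13508 matched the TAIR10.1 gene table of RefSeq. Members and gene lists were chosen with earlier results of these data known. Named genes were the 15 largest rises and 15 largest falls among calls with 1 gene and groups that do not overlap, and from each list the 3 most changed called members at most, or else the member of lowest p. Others picked after their values were seen were AT1G06830, AT1G28400, AT3G45160, GAMMA-VPE, IAGLU, JAL34, NAI1, NAI2, PYE, PYK10, SAPX, TBL36 and TUB1; list members named without an SE show the rest of a list. Organelle genes were moved to lists of their own by chromosome after values were seen. Figures were drawn with matplotlib 3.10.9.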

Additional observations from a re-analysis of the deposited data

How the results depend on the processing

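Of the 201 rises and 293 falls, the counts with no filter were 42 and 71, with only the 2 groups compared 1 and 2, with only the 3 SAM groups 79 and 110, with no intensity trend 78 and 147, and 2 and 3 when the GAPDH ratio was a covariate. Called members of the gene lists were then 4, 1, 8, 10 and 1. Leaving out 1 array gave 64 to 256 rises, 114 to 310 falls and 9 to 34 called list members against 32 over all arrays. The other alternatives (no floor, a floor at 40, a pseudocount of 20, quantile normalization, median centring, a filter on the lowest 50%, array weights) kept each of these counts within 1.5 times. The replicate numbers share only a number: the deviations of same-numbered arrays correlated at -0.166, 0.0488 and -0.116. With the replicate block over the 3 SAM groups, 15 probe sets rose and 22 fell, with 3 called list members, and the cause was not tested.

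Of 61 called named probe sets none changed sign against mock under any alternative. The floor set the size of dim genes: at 40, AT5G42440 was 0.56, AT3G16670 0.10, LSH9 -0.88 and AT1G01640 -0.47, and with no floor AT3G16670 was 1.55 and AT1G01640 -2.64. The call was kept for 10 with the replicate block and for 2 with the GAPDH covariate. Differences that passed no test changed sign as follows. With the GAPDH covariate, WAG2 was 0.09, PS2 0.01, CLV3 0.08, Prx37 0.19 and OLEO3 -0.14 against mock, and L-AOPP alone gave -0.01 for AT1G28710, -0.08 for AT5G64110 and AT5G38320, 0.05 for GTR2 and -0.03 for PDC2. With array weights OLEO3 was -0.03 and AT5G38320 (L-AOPP alone) -0.03. With L-AOPP alone AT3G16670 was -0.21 with no floor and 0 with a floor at 40. Leaving out 1 array in turn, the difference against mock ranged from -0.23 to 0.01 for IAA30, -0.34 to 0.05 for WAG2, -0.16 to 0.47 for AT5MAT, -0.47 to 0.04 for OPS and -0.06 to 0.18 for OLEO3. With L-AOPP alone it ranged from -0.02 to 0.57 for SWEET11, 0 to 0.27 for AT3G16670, -0.04 to 0.22 for AT1G28710, -0.03 to 0.36 for AT4G01390, -0.18 to 0.21 for AT5G64110, -0.08 to 0.11 for AT5G38320, -0.43 to 0.02 for GTR2, -0.06 to 0.05 for GRXC2, -0.05 to 0.08 for PDC2 and -0.40 to 0.06 for BGLU33. Leaving out L-AOPP arrays was chosen after seeing the data.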
